A study of Homo sapiens with 48 samples.

Results

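The comparison described here sets 20 RNA-seq libraries of H9 human embryonic stem cells, taken on day 8 of a monolayer differentiation, against the 2 libraries of the same line taken on day 0 (D0). Members were the libraries of day 8 that received solvent or a single antioxidant without S9 (a liver enzyme fraction), plus D0, which gave 22 of the 48 libraries of the series. The day 8 libraries came as 2 each from 10 groups, 9 with a compound (TBHQ, DTBP, DG, BHT, BHT_CHO, BHT_COOH, BHA, AO_2246 and AO168_O) and the solvent control DMSO. All were wild-type cells grown in E6, a medium without the growth factors that maintain stem cells, and exposed for 8 days. BHA, BHT and TBHQ are phenolic antioxidants by general knowledge, and the other 6 names were taken as antioxidants or their products by assumption. D0 was labelled as having no treatment. Its own medium and the doses are not stated, so time, medium and exposure cannot be told apart in any difference from D0. The labels do not say whether the 2 libraries of a group were separate cultures, so the p-values below measure the spread between libraries. All 22 libraries are of 1 cell line.

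Embryonic stem cells in culture are held undifferentiated by the factors POU5F1, NANOG and SOX2, together with FGF and with Nodal or activin, which signal through SMAD2 and SMAD3. When Nodal and activin signalling is low, such cells take an ectodermal course by default. Where BMP is also low, neural ectoderm of anterior character forms, and surface ectoderm, placodes and the neural border form where some BMP signalling remains. In cells of this kind, retinoic acid moves positional identity toward the hindbrain, and its breakdown by CYP26 enzymes protects anterior tissue.

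Depth was even, with totals between 17918844 and 20096084 counts. The library DG_1 stood apart with the lowest total and the most genes detected, 17992, against 17121 to 17331 in the other 19 day 8 libraries and 17066 and 17073 in D0. Without DG_1, the number of separating genes given below as 7771 was 7969. Leaving out any other single library raised that number too, for example to 8010 without AO_2246_1 and 8008 without DMSO_1. On the first principal component of log2 CPM (53.8% of the variance), the day 8 libraries lay between -21.9 and -0.582 and D0 at 123.1 and 123.8. Levels are CPM, counts relative to the library total after TMM scaling, and compare libraries but not genes of unlike length. For each gene the lowest, median and highest of the 20 day 8 libraries are given first, and then D0 libraries 1 and 2. A gene is said to have changed when the mean of the 10 day 8 groups differed from D0 with an adjusted p under 0.05 (edgeR quasi-likelihood test, Benjamini-Hochberg over 15890 genes). It separates when, in addition, no day 8 library overlapped either D0 library.

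Of the 15890 genes tested, 10077 changed (63.4%), 5026 of them higher on day 8 (31.6%) and 5051 lower (31.8%). The genes that separated all 20 libraries from D0 numbered 7771 (48.9%), with 3854 higher (24.3%) and 3917 lower (24.7%). The TMM factors were 0.942 to 1.055 on day 8 and 0.909 and 0.8835 on D0. Scaling by library totals alone, which moved the median of all genes by 0.174 on the log2 scale, gave 6187 higher and 3852 lower among the changed and 4769 and 3004 among the separating. Changes of at least 2-fold were called for 2287 genes higher and 1632 lower, and 677 and 508 genes had a gap of at least 2-fold between the nearest libraries of both sides. The counts of the lists below stand against these shares of all genes. In bulk RNA, fewer cells of a type and less RNA of a gene per cell cannot be told apart.

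Against D0, the 10 groups taken one at a time gave 8104 changed genes in BHT_CHO to 8574 in DG, and DMSO gave 8557. In all 10 groups and in the same direction, 2886 genes were higher (18.2%) and 2989 lower (18.8%). These 10 comparisons share both D0 libraries. Of the changed genes that did not separate, 1023 overlapped D0 through 1 library only, most often DMSO_1 (209 genes), AO_2246_1 (183) or DG_1 (145). With DMSO alone as the day 8 group, 8511 genes would have separated, of which 7071 also separated with all 20 libraries. At the edge of the rule lay RTKN, just inside, whose day 8 libraries reached 56.6052 CPM against 56.6098 CPM in the lower D0 library. ADAM21, with 0 to 0.593 CPM on day 8 and 0 in both D0 libraries, was just outside.

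The 7 marker genes of the comparison all separated. POU5F1 (chr6:31164337-31180731, minus strand, GENCODE 29 on GRCh38), the core pluripotency factor, was at 408, 725 and 1072 CPM on day 8 and at 2819.9 and 3233 CPM on D0 (log2 fold change -2.08, SE 0.29, edgeR adjusted p 9.57e-06). The highest day 8 library was thus well below the lower D0 library, while none was near 0. Reads of POU5F1, and below of NANOG, TDGF1 and GAPDH, may be shared with their near-identical pseudogenes, which was not examined. NODAL (chr10:70432315-70447951, minus strand), the secreted signal, was at 0.407, 0.879 and 1.40 CPM on day 8 and at 67.3 and 79.4 CPM on D0 (log2 fold change -6.40, SE 0.17, edgeR adjusted p 1.3e-13). LEFTY1 (chr1:225886282-225911382, minus strand), a secreted Nodal inhibitor that Nodal itself induces, was at 0, 0.101 and 0.356 CPM on day 8 and at 60.3 and 98.4 CPM on D0 (log2 fold change -10.09, SE 0.25, edgeR adjusted p 6.08e-13). Both genes were close to 0 in all 20 day 8 libraries. LEFTY1 had 0 to 7 counts there, and its log2 fold change by group ran from -13.6 to -8.41. The size of its change thus rests on few counts, and its SE of 0.25 does not describe that range.

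The ectodermal markers were higher on day 8. LHX5 (chr12:113462034-113472280, minus strand), a LIM-homeodomain factor of the anterior neural plate, was at 279, 436 and 580.0 CPM on day 8 and at 1.68 and 1.40 CPM on D0 (log2 fold change 8.08, SE 0.28, edgeR adjusted p 2.23e-12). SIX3 (chr2:44941898-44946077, plus strand), needed for forebrain and eye, was at 149, 379.8 and 501 CPM on day 8 and at 2.13 and 0.994 CPM on D0 (log2 fold change 7.81, SE 0.66, edgeR adjusted p 3.88e-08). Both genes were high in every day 8 library and under 3 CPM on D0. DLX5 (chr7:97020392-97024950, minus strand), a factor of the placodes and neural border, was at 18.1, 57.9 and 101 CPM on day 8 and at 0.168 and 0.292 CPM on D0 (log2 fold change 7.89, SE 1.10, edgeR adjusted p 1.03e-05). CRABP2 (chr1:156699606-156705816, minus strand), which carries retinoic acid to its nuclear receptor, was at 602, 776 and 898 CPM on day 8 and at 66.8 and 83.8 CPM on D0 (log2 fold change 3.35, SE 0.14, edgeR adjusted p 1.46e-11). Of the 4 ectodermal markers, CRABP2 had the narrowest day 8 range as a ratio of the highest to the lowest library (1.49) and the highest CPM on D0.

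**Figure D1:**
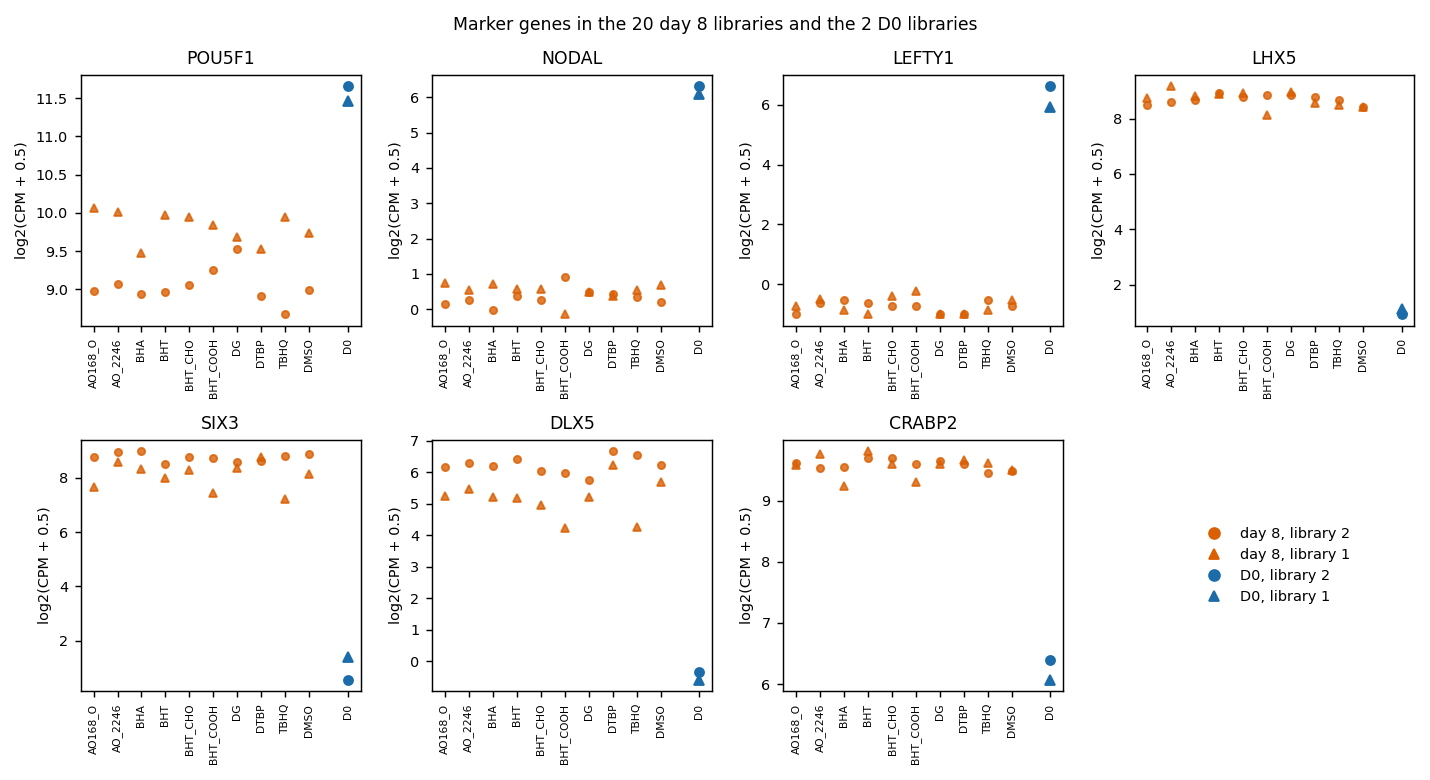
Level of the 7 marker genes in each library, as log2(CPM + 0.5), for the 10 day 8 groups (orange) and D0 (blue), with circles for libraries numbered 2 and triangles for libraries numbered 1. LHX5, SIX3, DLX5 and CRABP2 were above D0, and POU5F1, NODAL and LEFTY1 below D0, in all 20 day 8 libraries.

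Ranking by the gap between the nearest libraries, rather than by p, puts first the genes in which even the nearest libraries were far apart. Among genes of at least 5 CPM in the higher group, the 15 with the widest gap above D0 were LHX5, DLK1, LMO1, SIX3, CYP26A1, GREB1L, DLX5, IRX1, LIX1, FRZB, RAX, FLRT3, BAHCC1, FEZF1 and HES4. DLK1, an imprinted membrane protein related to Notch ligands, was at 665, 1888 and 3421 CPM on day 8 and at 7.24 and 6.49 CPM on D0 (log2 fold change 8.06, SE 0.98, edgeR adjusted p 2.18e-06). LMO1, a LIM-only transcriptional adaptor, was at 81.9, 116 and 192 CPM on day 8 and at 0.505 and 0.175 CPM on D0 (log2 fold change 8.40, SE 0.40, edgeR adjusted p 5.9e-11). For LMO1 the nearest libraries still differed 162-fold. GREB1L, a relative of the oestrogen-responsive gene GREB1, had 68.8, 130.1 and 158 CPM on day 8 and 1.91 and 0.702 CPM on D0. FRZB, a secreted Wnt antagonist, had 83.2, 139 and 173 CPM on day 8 and 3.98 and 3.86 CPM on D0. FLRT3, an adhesion protein that binds FGF receptors, had 25.9, 39.2 and 48.2 CPM on day 8 and 1.01 and 0.819 CPM on D0. That none of these genes overlapped D0 in any library follows from the selection, which took only separating genes. Which genes rank among the 15 depends on the 0.5 CPM added before the logarithm. With 2 CPM added, 11 of the 15 above D0 and 12 of the 15 below it ranked there too, and with 0.1 CPM added, 12 and 13 did.

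The 15 with the widest gap below D0 were LEFTY1, NODAL, LEFTY2, METTL7A, LCP1, HHLA1, TIMP4, DACT1, CAV1, SPP1, NTS, CER1, PDZD4, PDE4B and RASGRF2. NODAL itself and its antagonists LEFTY1, LEFTY2 and CER1 are 4 of them. DACT1, an intracellular modulator of Wnt signalling, had 0.889, 1.32 and 1.85 CPM on day 8 and 37.7 and 40.6 CPM on D0 (log2 fold change -4.88, SE 0.13, edgeR adjusted p 9.79e-14). CAV1, the coat protein of caveolae, had 1.13, 1.74 and 2.44 CPM on day 8 and 61.3 and 42.2 CPM on D0 (log2 fold change -4.87, SE 0.16, edgeR adjusted p 9.46e-13). SPP1, the secreted phosphoprotein osteopontin, had 9.33, 16.6 and 29.6 CPM on day 8 and 411 and 376 CPM on D0 (log2 fold change -4.54, SE 0.20, edgeR adjusted p 1.88e-11). SPP1 stayed measurable on day 8, whereas NTS, the precursor of the peptide neurotensin, had at most 0.511 CPM there against 12.1 and 12.7 CPM on D0. PDE4B, which degrades cyclic AMP, had 0.701, 1.28 and 2.15 CPM on day 8 and 37.03 and 27.8 CPM on D0. LCP1, an actin-bundling protein, had 1.56, 2.27 and 4.58 CPM on day 8 and 101 and 95.2 CPM on D0.

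**Figure D2:**
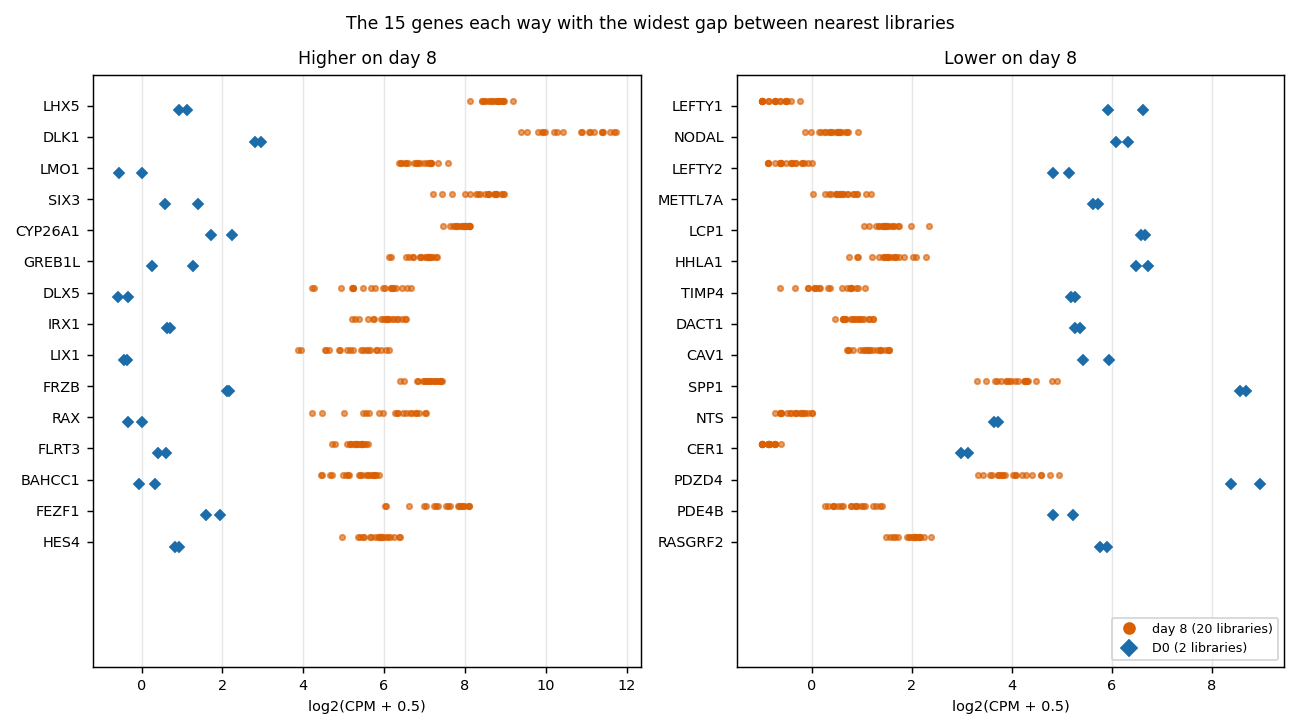
Levels as log2(CPM + 0.5) of the 15 genes with the widest gap above D0 (left) and below D0 (right), with each day 8 library as an orange dot and each D0 library as a blue diamond. In all 30 genes the 20 day 8 libraries lay wholly on one side of both D0 libraries, as the selection required.

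Within the Nodal pathway, the ligands NODAL and GDF3 and their feedback inhibitors fell, while 3 receptors rose. Of 18 genes tested, 8 were lower and 5 higher, and all 13 separated. TDGF1, the Nodal co-receptor, was at 107, 201 and 385 CPM on day 8 and at 908 and 739.5 CPM on D0 (log2 fold change -2.05, SE 0.29, edgeR adjusted p 1.18e-05). GDF3, a ligand related to Nodal, was at 1.39, 2.17 and 3.23 CPM on day 8 and at 33.05 and 34.4 CPM on D0 (log2 fold change -3.99, SE 0.15, edgeR adjusted p 6.22e-12). LEFTY2 fell by 7.07 and CER1, a secreted antagonist of Nodal and BMP, by 7.33 on the log2 scale (SE 0.26 and 0.34, edgeR adjusted p 4.57e-12 and 5.05e-11). The sizes rest on at most 10 and 3 counts in a day 8 library. Reads of LEFTY1 and LEFTY2 may be shared, since the genes are close copies. Intracellular inhibitors of the pathway fell too, SKIL by 2.39 and SMAD7 by 1.58 on the log2 scale (SE 0.17 and 0.11, edgeR adjusted p 6.28e-09 and 3.85e-09).

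Receptors other than TDGF1, and the SMADs that carry the signal, rose or did not pass. ACVR1B, a type I receptor, was at 59.6, 66.8 and 75.8 CPM on day 8 and at 25.8 and 26.6 CPM on D0 (log2 fold change 1.35, SE 0.08, edgeR adjusted p 6.54e-10), and ACVR2B and ACVR1C rose as well. SMAD2 and SMAD4 rose by 0.61 and 0.38 on the log2 scale, and neither passed with D0_2 left out (0.44 and 0.22). SMAD3 (0.10, edgeR adjusted p 0.638) and FOXH1, the DNA-binding partner of SMAD2 (0.25, edgeR adjusted p 0.353), did not pass. FOXH1 had 154, 219 and 304 CPM on day 8 and 183 and 194 CPM on D0.

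The pluripotency list was divided. Of 21 genes, 12 fell and all 12 separated, 2 rose and 7 did not pass. NANOG was at 22.1, 34.2 and 59.2 CPM on day 8 and at 131 and 112 CPM on D0 (log2 fold change -1.73, SE 0.23, edgeR adjusted p 7.21e-06). PRDM14, a repressor that guards the undifferentiated state, was at 21.2, 32.9 and 54.4 CPM on day 8 and at 117 and 144 CPM on D0 (log2 fold change -1.85, SE 0.25, edgeR adjusted p 6.95e-06). VRTN (-1.82), L1TD1 (-1.12), ZFP42 (-0.89) and DPPA4 (-0.86) fell as well, on the log2 scale. SOX2, which neural progenitors also use, was higher at 477, 543 and 680.4 CPM on day 8, against 383 and 336 CPM on D0 (log2 fold change 0.62, SE 0.12, edgeR adjusted p 0.000267). UTF1 also rose (0.88, edgeR adjusted p 0.0279), but did not pass with D0_1 (0.61) or D0_2 (1.20) left out.

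Genes of the list that did not pass included LIN28A and LIN28B, which block maturation of the let-7 miRNAs, SALL4, PODXL, FGF2 and KLF4. LIN28A had 999, 1316 and 1887 CPM on day 8 and 1227 and 1211 CPM on D0 (log2 fold change 0.13, SE 0.16, edgeR adjusted p 0.501). PODXL, the sialoglycoprotein that carries stem-cell surface epitopes, had 941, 1370.1 and 1963 CPM on day 8 and 1273 and 1458 CPM on D0. Day 8 libraries of both genes lay on either side of D0. The summed level of the list was 4657 to 8051 CPM in the day 8 libraries and 10160 and 10420 CPM on D0.

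The promoter of NANOG, from RefSeq on GRCh38.p14 (chr12:7789152-7789451, plus strand), is shown because it holds a joint octamer and SOX element, TTGCAT followed by any base and ACAA, in capitals. It was the only promoter with these letters among the 14 list members matched to the promoter table, against 5 of 12500 tested genes (0.04%), on either strand.
NANOG: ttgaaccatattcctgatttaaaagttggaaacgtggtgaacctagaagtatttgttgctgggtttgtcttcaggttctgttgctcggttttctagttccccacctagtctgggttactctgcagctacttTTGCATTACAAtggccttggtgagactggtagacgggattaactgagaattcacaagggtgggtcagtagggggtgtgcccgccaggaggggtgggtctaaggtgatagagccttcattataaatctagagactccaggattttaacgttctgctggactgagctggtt

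Anterior neural genes formed the list with the highest median, 3.93 on the log2 scale against 0.0367 for all genes tested. Of 22 genes, 19 rose and all 19 separated, 1 fell and 2 did not pass. Eye-field factors were among them. RAX, the retinal homeobox factor, was at 18.2, 79.6 and 132 CPM on day 8 and at 0.505 and 0.292 CPM on D0 (log2 fold change 7.54, SE 1.18, edgeR adjusted p 3.28e-05). PAX6, needed for eye and cortex, was at 5.50, 27.6 and 61.6 CPM on day 8 and at 0.561 and 0.526 CPM on D0 (log2 fold change 5.66, SE 1.29, edgeR adjusted p 0.00111). SIX6 and LHX2, further factors of the eye field, rose by 6.23 and 5.73 on the log2 scale (SE 1.37 and 1.51, edgeR adjusted p 0.000857 and 0.00347). PAX2, a gene of the optic stalk, had 0.204, 0.842 and 1.73 CPM on day 8 and no count on D0.

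Forebrain factors rose beside them. FEZF1, which represses caudal fate, was at 64.1, 194 and 274 CPM on day 8 and at 3.37 and 2.51 CPM on D0 (log2 fold change 5.98, SE 0.75, edgeR adjusted p 3e-06). OTX2, expressed in stem cells and then in fore- and midbrain, was at 256, 313 and 402 CPM on day 8 and at 64.9 and 50.6 CPM on D0 (log2 fold change 2.47, SE 0.16, edgeR adjusted p 1.75e-09). HESX1 (3.13), SOX21 (4.27), SP8 (3.49) and ZIC1 (3.59) rose as well, on the log2 scale. SOX3 fell, at 6.04, 9.08 and 13.5 CPM on day 8 and 16.8 and 28.6 CPM on D0 (log2 fold change -1.30, SE 0.21, edgeR adjusted p 5.33e-05), and SOX1, an early pan-neural factor, had 0.150, 0.491 and 1.11 CPM on day 8 and 0.0561 and 0.292 CPM on D0 and did not pass. EMX2 rose (2.85) but did not pass with either D0 library left out.

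Surface ectoderm, placode and border genes rose in the same libraries. Of 21 genes tested, 16 rose and all 16 separated, 1 fell without separating and 4 did not pass. TFAP2A, a factor of surface ectoderm and neural crest, was at 11.2, 17.6 and 31.99 CPM on day 8 and at 0.729 and 0.994 CPM on D0 (log2 fold change 4.47, SE 0.40, edgeR adjusted p 8.26e-08). GATA3 was at 11.5, 16.6 and 29.2 CPM on day 8 and at 1.51 and 1.64 CPM on D0 (log2 fold change 3.49, SE 0.33, edgeR adjusted p 1.31e-07). DLX3, DLX6 and MSX2, homeobox genes of the border region, rose by 4.86, 7.30 and 3.68 on the log2 scale. IRX1, an Iroquois factor, was at 36.6, 66.9 and 93.2 CPM on day 8 and at 1.12 and 1.05 CPM on D0. GRHL3, which drives epidermal barrier genes, was at 18.7, 37.2 and 62.4 CPM on day 8 and at 5.39 and 6.67 CPM on D0 (log2 fold change 2.61, SE 0.43, edgeR adjusted p 5.58e-05).

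Of the epidermal markers of the list, TP63 did not pass and KRT5 and KRT14 were near 0. TP63, the master factor of stratified epithelium, had 3.07, 4.30 and 5.77 CPM on day 8 and 6.84 and 4.85 CPM on D0 (log2 fold change -0.44, SE 0.22, edgeR adjusted p 0.0823). KRT5 and KRT14, keratins of basal epidermis, had at most 4 counts in any of the 22 libraries. KRT8, a keratin of simple epithelia, had 563, 854 and 1321 CPM on day 8 and 795 and 1045 CPM on D0 and did not pass (log2 fold change -0.10, SE 0.17, edgeR adjusted p 0.624). KRT18, the partner of KRT8, fell (log2 fold change -0.73, SE 0.22, edgeR adjusted p 0.00908), though not past the threshold with D0_2 left out (-0.59) or with library totals (-0.55). KRT19, also of simple epithelia, was at 189, 235 and 274 CPM on day 8 and at 124 and 152 CPM on D0 and separated (log2 fold change 0.75, SE 0.11, edgeR adjusted p 1.28e-05).

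Neural crest genes moved both ways, with 8 of 12 higher, 2 lower and all 10 separating. SOX10, a crest and glial factor, was at 24.2, 30.9 and 40.3 CPM on day 8 and at 3.76 and 5.67 CPM on D0 (log2 fold change 2.71, SE 0.18, edgeR adjusted p 1.96e-09). PAX7, of the neural border and dorsal tube, was at 3.87, 9.85 and 22.7 CPM on day 8 and at 0.112 and 0.0585 CPM on D0 (log2 fold change 6.82, SE 1.12, edgeR adjusted p 5.47e-05). FOXD3, which is also a stem-cell gene, and ETS1 fell, by 2.20 and 4.11 on the log2 scale (SE 0.24 and 0.27, edgeR adjusted p 5.39e-07 and 1.79e-09). SNAI2 and TWIST1, which mark migrating crest, stayed under 2 CPM in every library.

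Of the mesendoderm list, 11 of 16 genes were tested, with 4 higher and 5 lower. EOMES and SOX17 had at most 6 counts in any library, and TBXT, of early mesoderm, had 0.102, 0.375 and 0.854 CPM on day 8 and 0.281 and 0.409 CPM on D0. FOXA2, of definitive endoderm and floor plate, was at 0 to 0.0529 CPM on day 8 and at 1.12 and 1.29 CPM on D0 (log2 fold change -6.70, SE 0.51, edgeR adjusted p 1.69e-06). Its day 8 level was near 0, so the size of that change rests on few counts. The members that rose were GSC (5.07), HHEX (3.66), MESP1 (3.69) and TBX6 (3.03), and the highest of them in any day 8 library was TBX6 at 23.2 CPM. The summed level of the list was 69.4 to 124.7 CPM in the day 8 libraries and 214.7 and 167.1 CPM on D0.

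Of the amnion and trophoblast list, 9 of 12 genes were tested, with 6 higher and 1 lower, and CGB3 (higher) and IGFBP3 (lower) separated. CGB3 has close copies with which it may share reads. HAND1 had 0.0975 to 0.854 CPM on day 8 and 0.112 and 0 CPM on D0, and ISL1 had 0.347 to 2.49 CPM on day 8 and 0.393 and 0.175 CPM on D0. With D0_1 left out 2 genes of the list were higher, and with D0_2 left out 1 was. IGFBP3 did not pass with D0_1 left out (-0.52), with D0_2 left out (-0.51) or with library totals (-0.33). It did not pass with all 48 libraries in the fit, in libraries of either number alone or in the DMSO group alone either. The summed level of the list was 29.7 to 48.1 CPM on day 8 and 31.0 and 33.2 CPM on D0.

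Genes of young neurons were mixed as well, with 7 of 11 tested higher and 4 lower. STMN2, a regulator of microtubules in growing axons, was at 8.88, 13.1 and 22.9 CPM on day 8 and at 0.393 and 0.234 CPM on D0 (log2 fold change 5.48, SE 0.56, edgeR adjusted p 3.29e-07). MAP2, of dendrites, was at 9.96, 25.9 and 48.3 CPM on day 8 and at 2.36 and 2.10 CPM on D0 (log2 fold change 3.59, SE 0.71, edgeR adjusted p 0.000316). TUBB3, a neuronal tubulin also present in stem cells, was lower at 65.1, 96.7 and 134 CPM on day 8, against 355 and 510.1 CPM on D0 (log2 fold change -2.19, SE 0.18, edgeR adjusted p 2.28e-08), and GAP43 fell by 2.80 on the log2 scale. NEUROG2, a proneural factor, had 0.204, 1.77 and 7.56 CPM on day 8 and no count on D0, and did not pass with either D0 library left out. With D0_1 left out 5 genes of the list were higher and 2 lower, and with D0_2 left out 3 were higher and 2 lower. NEUROD1 and NEUROD4 had at most 4 counts in any library.

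Most posterior genes had few counts. Of 14 hindbrain and spinal cord genes, 5 were tested and 4 rose, among them IRX3 (11.2, 16.8 and 22.3 CPM on day 8, 1.51 and 1.40 CPM on D0). EGR2 and PAX5 rose to at most 10.2 and 1.30 CPM. The HOX genes measured had at most 5 counts in any of the 22 libraries, and none was tested. BARHL1, a homeobox gene of the developing diencephalon and cerebellum that was picked after its values were seen, had 34 to 175 counts in the day 8 libraries and none on D0. Its mean on day 8 was at least 29.1-fold higher than the limit that 3 counts in a D0 library allow.

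**Figure D3:**
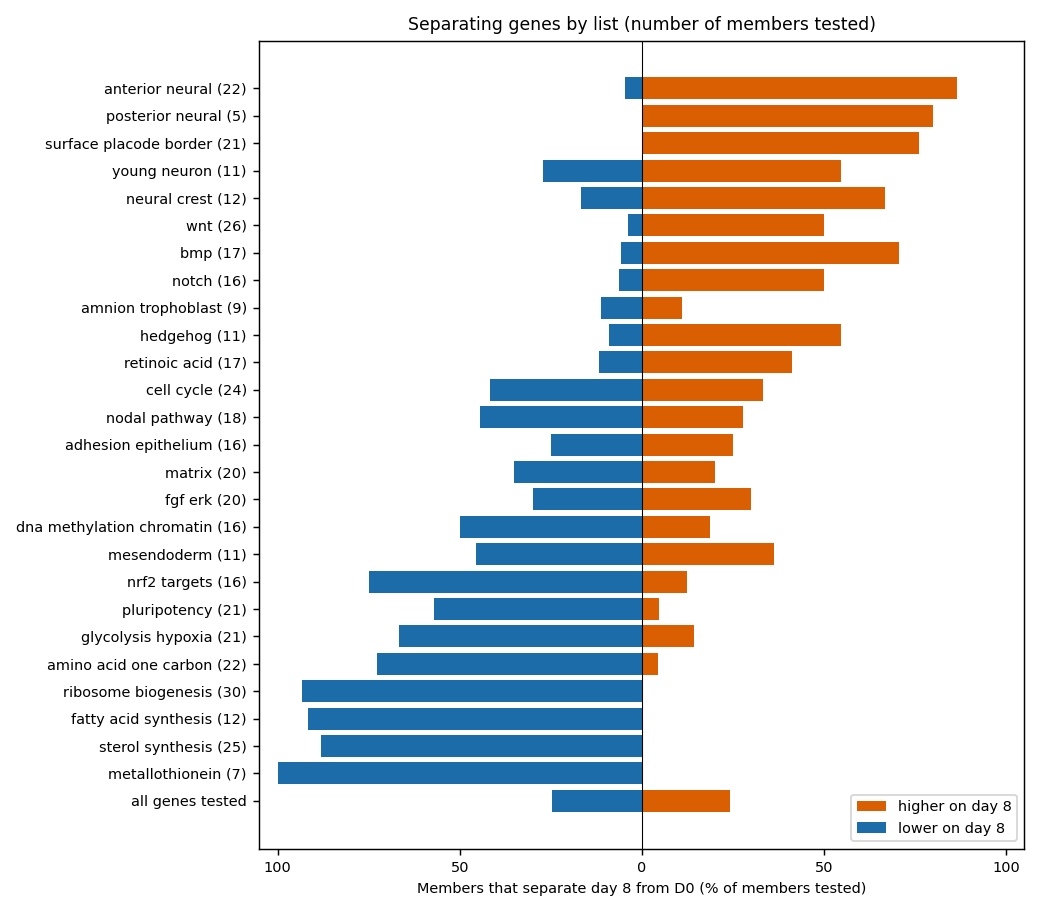
Share of the tested members of 26 lists that separated all 20 day 8 libraries from D0, in percent, higher on day 8 to the right (orange) and lower to the left (blue), with the number tested in brackets and all genes in the last row. Lists that extend mainly to the right include anterior and posterior neural, surface, neural crest, BMP, Wnt, Notch and Hedgehog. The sterol, fatty acid, ribosome biogenesis and metallothionein lists extend only to the left.

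Of 17 retinoic acid genes tested, 9 rose and 3 fell, with 7 and 2 separating, and CYP26C1, CYP26A1, RARB and CRABP2 rose furthest. CYP26A1, which breaks retinoic acid down, was at 177, 249 and 278 CPM on day 8 and at 2.81 and 4.21 CPM on D0 (log2 fold change 6.11, SE 0.23, edgeR adjusted p 4.8e-12). CYP26C1, of the same family, was at 4.07, 8.84 and 13.4 CPM on day 8 and at 0.0561 and 0.0585 CPM on D0 (log2 fold change 6.996, SE 0.78, edgeR adjusted p 8.12e-07). RARB, a receptor that retinoic acid induces, was at 1.85, 3.79 and 9.33 CPM on day 8 and at 0.393 and 0.175 CPM on D0 (log2 fold change 3.71, SE 0.50, edgeR adjusted p 7.96e-06), and RARG, another receptor, rose by 1.40 on the log2 scale. Enzymes that make retinoic acid were under 16 CPM in every library. ALDH1A3 was at 5.77, 7.94 and 10.04 CPM on day 8 and at 15.7 and 15.3 CPM on D0 (log2 fold change -0.99, SE 0.15, edgeR adjusted p 2.29e-05), and ALDH1A1 stayed under 1 CPM. ALDH1A2 rose without separating, at 0.255, 1.08 and 1.95 CPM on day 8 and 0.505 and 0.117 CPM on D0 (log2 fold change 1.77, SE 0.66, edgeR adjusted p 0.0272), but did not pass with D0_2 left out (1.09). RDH10, the first dehydrogenase of the path, fell by 0.65 on the log2 scale.

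The promoters of CYP26A1 and RARB are shown because both hold GTTCA, the last 5 bases of the 6-base retinoic acid receptor half-site, as a direct repeat with 6 bases between the copies (5 between whole half-sites). On either strand these letters were in 2 of the 15 list members matched, CYP26A1 and RARB, and in 9 of 12500 tested genes (0.072%). GTTCA repeated with 5 bases between (4 between whole half-sites) was in none of the 15. The windows are from RefSeq on GRCh38.p14, chr10:93073643-93073942 and chr3:25428013-25428312, both plus strand, with the match in capitals. Where the promoter table gives several starts, the one that holds the letters is shown.
CYP26A1: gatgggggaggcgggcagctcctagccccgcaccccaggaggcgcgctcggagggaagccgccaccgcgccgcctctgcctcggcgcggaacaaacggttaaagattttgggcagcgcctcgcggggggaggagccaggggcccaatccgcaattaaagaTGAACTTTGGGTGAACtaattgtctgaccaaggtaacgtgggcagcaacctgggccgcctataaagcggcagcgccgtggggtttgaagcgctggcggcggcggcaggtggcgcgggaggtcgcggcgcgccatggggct
RARB: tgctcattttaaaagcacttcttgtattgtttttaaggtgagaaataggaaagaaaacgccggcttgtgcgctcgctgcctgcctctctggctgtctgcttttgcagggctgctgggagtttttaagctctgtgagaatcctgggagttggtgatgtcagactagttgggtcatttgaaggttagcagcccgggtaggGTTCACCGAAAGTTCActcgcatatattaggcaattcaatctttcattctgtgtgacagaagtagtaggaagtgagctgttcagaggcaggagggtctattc

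Of 20 FGF and ERK genes, 6 rose (30%) and 7 fell (35%), shares near the 31.6% and 31.8% of all genes. FGFR1 to FGFR3, the main receptors, rose: FGFR1 was at 1007, 1173 and 1326 CPM on day 8 and at 402 and 466 CPM on D0 (log2 fold change 1.45, SE 0.10, edgeR adjusted p 5.37e-09), and FGFR3 was at 209.9, 270.3 and 324 CPM on day 8 and at 31.8 and 36.4 CPM on D0 (log2 fold change 2.99, SE 0.16, edgeR adjusted p 1.81e-10). FGFR4 fell (-0.66), though not past the threshold with D0_2 left out (-0.31). Of 10 targets and feedback inhibitors of ERK in the list, 4 fell (SPRY4, ETV1, ETV4 and IER3), 1 rose (DUSP4, 1.63) and 5 did not pass (SPRY1, SPRY2, SPRED1, DUSP6 and ETV5). ETV4 fell by 1.62 and SPRY4 by 1.48 on the log2 scale (SE 0.17 and 0.24, edgeR adjusted p 6.18e-07 and 5.09e-05). DUSP6, an ERK phosphatase that ERK induces, had 5.31, 22.4 and 79.6 CPM on day 8 and 59.5 and 60.6 CPM on D0. It did not pass (log2 fold change -1.27, SE 0.74, edgeR adjusted p 0.144) and had the widest day 8 range of the list as a ratio of the highest to the lowest library.

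BMP genes were mostly higher, 12 of 17, with 2 lower. ID1 to ID4, early targets of BMP that block neuronal differentiation, all separated. ID4 was at 133, 160.1 and 185 CPM on day 8 and at 12.7 and 8.19 CPM on D0 (log2 fold change 3.94, SE 0.18, edgeR adjusted p 4.53e-11), and ID1 was at 322, 442 and 521 CPM on day 8 and at 166 and 167 CPM on D0 (log2 fold change 1.36, SE 0.13, edgeR adjusted p 1.01e-07). BMP4 rose by 1.49 and its antagonist NOG by 6.58 on the log2 scale (SE 0.17 and 0.95, edgeR adjusted p 1.07e-06 and 1.54e-05). NOG had 2.34, 6.30 and 10.05 CPM on day 8 and 0.0561 and 0.0585 CPM on D0. BAMBI, a pseudoreceptor that BMP induces, fell (log2 fold change -1.21, SE 0.21, edgeR adjusted p 9.12e-05).

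Of 26 Wnt genes, 14 rose and 3 fell. The receptors FZD5, FZD8 and FZD2 rose by 2.86, 3.06 and 3.24 on the log2 scale, and FZD5 was at 436, 677 and 797 CPM on day 8 and at 98.7 and 81.9 CPM on D0. The secreted antagonist SFRP1 was at 328, 543 and 678 CPM on day 8 and at 127 and 96.7 CPM on D0 (log2 fold change 2.25, SE 0.22, edgeR adjusted p 2.32e-07). AXIN2, a common target of the pathway, had 20.8, 26.8 and 32.9 CPM on day 8 and 31.6 and 39.2 CPM on D0 and did not pass (log2 fold change -0.40, SE 0.20, edgeR adjusted p 0.0832). SP5, another target, rose (3.67, edgeR adjusted p 0.00161) at under 10 CPM.

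Of 16 Notch genes, 11 rose and 1 fell. The ligand DLL1 was at 37.5, 43.5 and 48.9 CPM on day 8 and at 1.63 and 3.04 CPM on D0 (log2 fold change 4.20, SE 0.19, edgeR adjusted p 3.12e-11), and the targets HES1 and HES4 rose by 1.45 and 5.39 on the log2 scale. HES6, which opposes HES1, fell by 1.18 on the log2 scale. Of 11 Hedgehog genes tested, 7 rose and 2 fell. The co-receptors GAS1, BOC and CDON rose by 3.43, 2.29 and 0.77 on the log2 scale, and GLI3, which acts mainly as a repressor in the absence of ligand, rose by 2.11. SHH, the ligand, had at most 8 counts in any library, and GLI1, a usual target, did not pass (log2 fold change -0.36, SE 0.22, edgeR adjusted p 0.174). Other members moved in opposite directions. PTCH1 separated higher, by 0.43 in libraries numbered 2 and 0.90 in those numbered 1 on the log2 scale. HHIP separated lower, at -2.15 and -1.47.

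Of 16 adhesion genes, 4 rose (25%) and 5 fell (31.2%), again near the shares of all genes. CDH1, E-cadherin, was at 264, 325 and 362 CPM on day 8 and at 220.5 and 254 CPM on D0 (log2 fold change 0.44, SE 0.10, edgeR adjusted p 0.00129), though it did not pass with D0_1 left out (0.33). CDH2, N-cadherin, was lower at 28.9, 52.4 and 72.7 CPM on day 8, against 85.6 and 79.3 CPM on D0 (log2 fold change -0.67, SE 0.24, edgeR adjusted p 0.0234), and did not pass with either D0 library left out or with library totals. EPCAM, a surface protein of epithelia and stem cells, had 183, 218 and 293 CPM on day 8 and 284 and 246 CPM on D0 and did not pass. VIM, an intermediate filament of mesenchymal and neural cells, was lower at 88.1, 117 and 187 CPM on day 8, against 349 and 305 CPM on D0 (log2 fold change -1.36, SE 0.19, edgeR adjusted p 9.82e-06). The tight-junction genes CLDN3 and CLDN4 rose by 2.26 and 2.48 on the log2 scale. Of 20 matrix genes, 9 rose and 8 fell, with 4 and 7 separating, and 5 were higher and 8 lower with D0_1 left out. VCAN, a large proteoglycan, was at 63.1, 79.5 and 162 CPM on day 8 and at 649 and 530.0 CPM on D0 (log2 fold change -2.77, SE 0.18, edgeR adjusted p 1.75e-09).

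Of 16 genes of DNA methylation and chromatin, 9 fell and 5 rose. DNMT3B, the methyltransferase of early embryos, was at 1060.0, 1711 and 2198 CPM on day 8 and at 3633 and 4303 CPM on D0 (log2 fold change -1.24, SE 0.22, edgeR adjusted p 0.000102). With 8 of the 9 separating, the lower genes also included UHRF1 and EZH2. UHRF1, which guides maintenance methylation, fell by 1.69, and EZH2, of Polycomb, by 1.09 on the log2 scale. DNMT3L, a cofactor of DNA methyltransferases, and TET2, which oxidises methylated cytosine, rose by 3.68 and 1.82, at under 10 CPM in every library.

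Of 24 cell-cycle genes tested, 10 rose and 10 fell. The helicase genes MCM2, MCM3 and MCM5 were among the lower. MCM5, of the replicative helicase, was at 122, 147 and 183 CPM on day 8 and at 446 and 560.3 CPM on D0 (log2 fold change -1.73, SE 0.11, edgeR adjusted p 1.68e-09), and the replication clamp PCNA, the G1 cyclin CCNE1 and E2F1 fell by 0.98, 1.34 and 0.90 on the log2 scale. TOP2A, the topoisomerase of dividing cells, was higher at 319.8, 395 and 558 CPM on day 8, against 209 and 162 CPM on D0 (log2 fold change 1.09, SE 0.11, edgeR adjusted p 4.08e-07). The inhibitors CDKN1B and CDKN1C rose by 1.29 and 1.76, and CCND1 by 1.14, while AURKA, a mitotic kinase, did not pass (0.07). CDKN1A rose by 1.21 but did not pass with D0_1 left out (1.04, edgeR adjusted p 0.0516).

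All 25 genes of sterol synthesis and uptake were lower, 22 of them separating, with a median of -1.67 on the log2 scale. ACAT2, the first enzyme of the path, was at 36.00, 44.3 and 60.8 CPM on day 8 and at 475 and 526 CPM on D0 (log2 fold change -3.41, SE 0.12, edgeR adjusted p 3.26e-12). FDPS, which makes farnesyl pyrophosphate, was at 93.9, 110.4 and 143 CPM on day 8 and at 398 and 526 CPM on D0 (log2 fold change -2.04, SE 0.10, edgeR adjusted p 5.9e-11). LSS, lanosterol synthase, was at 71.6, 84.8 and 106 CPM on day 8 and at 369 and 548 CPM on D0 (log2 fold change -2.41, SE 0.11, edgeR adjusted p 3.2e-11). The smallest changes were those of PMVK (-0.30), TM7SF2 (-0.35) and SREBF2, the transcription factor of the path (-0.43), and these overlapped D0 and did not pass with D0_2 left out. With library totals 23 of the 25 passed, all lower.

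All 12 genes of fatty acid synthesis fell, 11 of them separating. SCD, which makes monounsaturated fatty acids, was at 465, 515 and 622 CPM on day 8 and at 2208 and 2554 CPM on D0 (log2 fold change -2.19, SE 0.07, edgeR adjusted p 1.55e-12). ACSS2, which activates acetate, was at 16.2, 21.99 and 26.6 CPM on day 8 and at 124 and 228 CPM on D0 (log2 fold change -3.04, SE 0.12, edgeR adjusted p 5.03e-12). FASN, the fatty acid synthase, was at 389.7, 474 and 584 CPM on day 8 and at 1183 and 2354 CPM on D0, so the D0 libraries were far apart while both exceeded every day 8 library. ELOVL5 was the member that overlapped.

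All 30 genes of the ribosome biogenesis list were lower, 28 of them separating, with a median of -1.15. The list includes the transcription factors MYC and MYCN. MYC, which drives many of the other members, was at 39.6, 45.1 and 57.8 CPM on day 8 and at 106 and 115 CPM on D0 (log2 fold change -1.27, SE 0.11, edgeR adjusted p 3.23e-08). PES1, of the large-subunit assembly complex, was at 83.01, 92.6 and 108 CPM on day 8 and at 273 and 310.5 CPM on D0 (log2 fold change -1.64, SE 0.07, edgeR adjusted p 1.36e-11). NOP16 fell by 1.80 and EBNA1BP2 by 1.80 on the log2 scale, while NPM1, the abundant nucleolar chaperone, fell by 0.62. WDR12 and GNL3 did not separate, and 28 of the 30 passed with either D0 library left out or with library totals. Several ribosomal protein genes rose. RPL13A, RPL3, RPL12, RPL7A and RPL18 were among the 8 most abundant separating genes by TPM that were higher on day 8, with log2 fold changes of 0.50, 0.35, 0.32, 0.46 and 0.48. These were named by their level after their values were seen, and ribosomal protein genes have many processed copies in the genome.

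The promoter of PES1 is shown as an example of the E-box CACGTG, the site that MYC and its partners bind, in capitals (chr22:30591861-30592160, minus strand, RefSeq on GRCh38.p14). These letters, the same on both strands, were in 10 of the 24 members of the ribosome biogenesis list matched to the promoter table (41.7%) and in 1516 of 12500 tested genes (12.1%). In PES1 they lie after the start of the gene.
PES1: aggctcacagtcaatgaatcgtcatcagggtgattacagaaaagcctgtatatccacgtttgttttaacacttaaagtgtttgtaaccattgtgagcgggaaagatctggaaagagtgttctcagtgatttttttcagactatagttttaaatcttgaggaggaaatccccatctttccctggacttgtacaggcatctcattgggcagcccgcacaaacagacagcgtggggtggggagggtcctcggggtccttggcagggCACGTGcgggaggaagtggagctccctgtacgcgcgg

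Of 21 glycolysis and hypoxia genes, 15 fell and 4 rose, and 14 and 1 did so with D0_1 left out. LDHA, which makes lactate, was at 131, 185 and 369 CPM on day 8 and at 682 and 605 CPM on D0 (log2 fold change -1.67, SE 0.21, edgeR adjusted p 3.55e-06), and PKM was at 542, 634 and 979 CPM on day 8 and at 1911 and 2390.1 CPM on D0 (log2 fold change -1.63, SE 0.17, edgeR adjusted p 3.83e-07). BNIP3, a hypoxia target, rose (log2 fold change 0.88, SE 0.21, edgeR adjusted p 0.00145), while ADM and EGLN3, further targets of hypoxia, fell by 1.73 and 1.36 on the log2 scale. GAPDH, often used as a constant gene, was lower at 3715, 4393 and 6350.2 CPM on day 8, against 7957 and 8641 CPM on D0 (log2 fold change -0.88, SE 0.14, edgeR adjusted p 4.18e-05).

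Of 22 genes of amino acid uptake and one-carbon metabolism, 17 fell and 1 rose. SLC7A5, a carrier of large neutral amino acids, was at 138, 167 and 280.0 CPM on day 8 and at 826 and 1106 CPM on D0 (log2 fold change -2.38, SE 0.19, edgeR adjusted p 2.32e-08). SLC38A5, a glutamine carrier, was at 9.76, 11.8 and 13.95 CPM on day 8 and at 84.9 and 107 CPM on D0 (log2 fold change -3.02, SE 0.09, edgeR adjusted p 2.3e-13). The member that rose was DDIT3, a factor of the stress response (log2 fold change 1.81, SE 0.34, edgeR adjusted p 0.000195), while ATF4, which induces it, fell by 0.70 on the log2 scale.

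NRF2 is the factor that induces enzymes against oxidants, and of 16 of its targets 13 fell and 2 rose. HMOX1, heme oxygenase, was at 9.27, 13.9 and 17.2 CPM on day 8 and at 123 and 166 CPM on D0 (log2 fold change -3.41, SE 0.13, edgeR adjusted p 7.23e-12). NQO1, a quinone reductase, was at 18.1, 25.01 and 34.7 CPM on day 8 and at 145 and 130.1 CPM on D0 (log2 fold change -2.42, SE 0.09, edgeR adjusted p 4.8e-12). OSGIN1 (2.34) and ABCC1 (0.41) rose, and ABCC1 did not pass with D0_1 left out (0.18). All 18 libraries with an antioxidant lay below D0 for HMOX1 and NQO1, as did both DMSO libraries.

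All 7 metallothioneins tested fell and separated. MT1X, which binds zinc and copper, was at 20.9, 30.8 and 45.4 CPM on day 8 and at 107 and 102 CPM on D0 (log2 fold change -1.75, SE 0.19, edgeR adjusted p 5.16e-07), and MT2A was at 6.44, 9.84 and 17.1 CPM on day 8 and at 40.7 and 33.3 CPM on D0 (log2 fold change -1.78, SE 0.25, edgeR adjusted p 1.03e-05). These genes are close copies, so reads could be split among them. MT1F did not pass with D0_1 left out (-0.89). The MT2A promoter (chr16:56608334-56608633, plus strand, RefSeq on GRCh38.p14) is shown for its 6 copies of TGCACNC, the core of the metal response element, in capitals on either strand. The letters were in all 3 members matched (MT1H, MT1X and MT2A) and in 2005 of 12500 tested genes (16%).
MT2A: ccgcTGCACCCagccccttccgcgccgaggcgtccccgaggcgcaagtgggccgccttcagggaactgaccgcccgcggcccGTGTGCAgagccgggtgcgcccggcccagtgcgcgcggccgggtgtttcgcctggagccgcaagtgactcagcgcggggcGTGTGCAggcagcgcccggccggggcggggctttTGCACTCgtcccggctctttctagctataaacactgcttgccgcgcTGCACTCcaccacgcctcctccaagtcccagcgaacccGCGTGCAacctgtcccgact

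**Figure D4:**
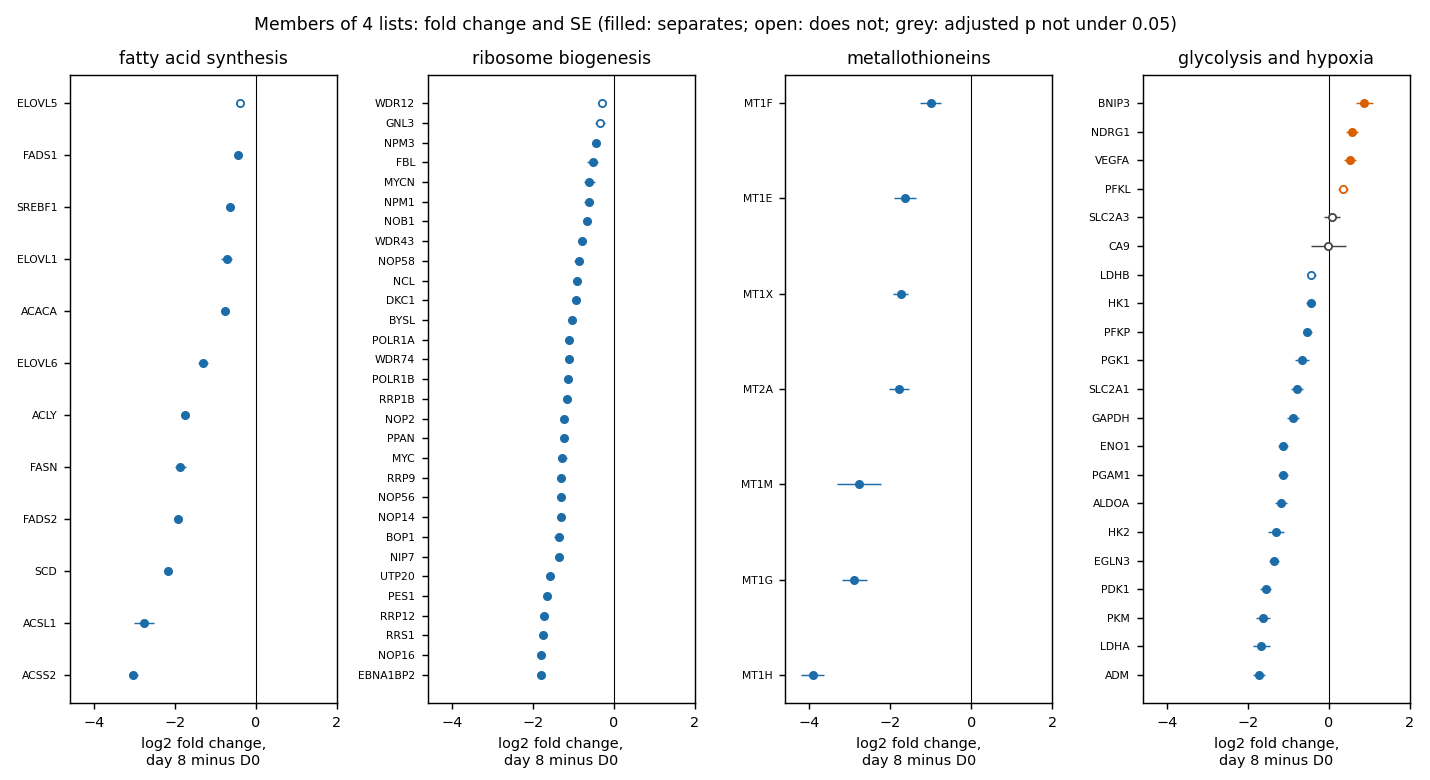
Log2 fold change of day 8 minus D0, with its SE, for the members of 4 lists, filled where all 20 day 8 libraries separated from D0 and open where they did not, in orange (higher), blue (lower) or grey (adjusted p not under 0.05). Members of the first 3 lists were all lower on day 8, with ACSS2 at -3.04 and MT1H at -3.92 at the far end.

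Further motifs searched in the same windows of 300 bases were the sterol element TCACNCCAC, in 1 of 18 sterol genes and 1 of 11 fatty acid genes against 1.61% of tested genes, and TGACNNNGC of NRF2, in 3 of 10 genes against 18.9%. CACGTG was in 5 and ACGTG in 9 of 18 glycolysis and hypoxia genes, against 12.1% and 30.8% of tested genes. TGCGCNC, the variant of the metal element, was in the same 3 metallothioneins, against 35.4%. AATCCACA was in none and AATNCACA in 2 of 13 Nodal genes, against 0.744% and 2.9%. ATTTGCAT was in none of 14 pluripotency genes, against 2.01%. All were searched on both strands, ACGTG lies within CACGTG and AATCCACA within AATNCACA, and a match is a description of letters only.

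The 9 antioxidant groups were then compared with DMSO within day 8. The mean of the 9 groups minus DMSO gave 0 genes at an adjusted p under 0.05 (edgeR, 0%), with 2340 at an unadjusted p under 0.05 (692 without DMSO_1), and DESeq2 gave 284. A test over all differences among the 10 groups gave 0 as well (edgeR, 0%), with 545 unadjusted, and DESeq2 gave 36. With the replicate number as a block, the first test gave 11 genes (3076 unadjusted) and the second gave 1 (1112 unadjusted). A p that misses the threshold does not show that the groups are alike. With all 48 libraries in the fit, 701 genes passed in the first of these tests and 8 in the second.

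The 2 libraries of a group differed from each other in a like way in most groups. Every group has a library numbered 1 and one numbered 2 in its labels, with nothing said of what the number stands for. In a fit of the 20 day 8 libraries with group and number as terms, chosen after the values were seen, 4430 of 15744 genes (28.1%) differed between the numbers, 2281 higher (14.5%) and 2149 lower (13.6%) in libraries numbered 2. On the first principal component, libraries numbered 2 lay between -21.9 and -15 and libraries numbered 1 between -14.7 and -0.582, and number 1 was nearer to D0 in all 10 groups.

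Among the named genes, LHX2 and DUSP6 had wide differences. LHX2 had a lowest, median and highest of 29.9, 47.95 and 62.2 CPM in libraries numbered 2 and of 3.42, 14.2 and 43.8 CPM in libraries numbered 1 (log2 difference 1.75, SE 0.27, edgeR adjusted p 0.000364), higher in number 2 in 9 of 10 groups, with DTBP the exception. PAX6 had 24.8, 40.6 and 61.6 CPM in libraries numbered 2 and 5.50, 15.8 and 30.4 CPM in libraries numbered 1 (log2 difference 1.47, SE 0.22, edgeR adjusted p 0.000345), higher in number 2 in all 10 groups. DUSP6 had 19.5, 41.5 and 79.6 CPM in libraries numbered 2 and 5.31, 7.76 and 38.9 CPM in libraries numbered 1 (log2 difference 1.99, SE 0.24, edgeR adjusted p 5.86e-05), also in all 10. The widest pair was TBHQ, with LHX2 at 62.2 CPM in its library 2 and 3.42 CPM in its library 1. FGF8, a ligand of the anterior neural ridge, was higher in number 2 in 9 groups (log2 difference 1.21, SE 0.26, edgeR adjusted p 0.00309), DLX5 in 10 (log2 difference 1.05, SE 0.14, edgeR adjusted p 0.000149) and SIX3 in 9 (log2 difference 0.68, SE 0.13, edgeR adjusted p 0.00128).

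POU5F1 went the other way, with 408, 505 and 736 CPM in libraries numbered 2 and 714, 951 and 1072 CPM in libraries numbered 1 (log2 difference -0.79, SE 0.08, edgeR adjusted p 3.49e-05), lower in number 2 in all 10 groups. PODXL (-0.55), DNMT3B (-0.54) and PRDM14 (-0.63) were likewise lower in number 2 on the log2 scale. In the pluripotency list 16 of 21 genes were lower and none higher in number 2, and in the anterior neural list 11 of 22 were higher and 1 lower. Of 22 amino acid and one-carbon genes, 15 were lower and none higher. LHX5 and CRABP2 did not pass. LHX5 had 339.7, 423 and 489 CPM in libraries numbered 2 and 279, 442 and 580.0 CPM in libraries numbered 1 (log2 difference -0.01, SE 0.09, edgeR adjusted p 0.951), and CRABP2 had 698, 775 and 834 CPM in libraries numbered 2 and 602, 778 and 898 CPM in libraries numbered 1 (log2 difference 0.02, SE 0.06, edgeR adjusted p 0.831).

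**Figure D5:**
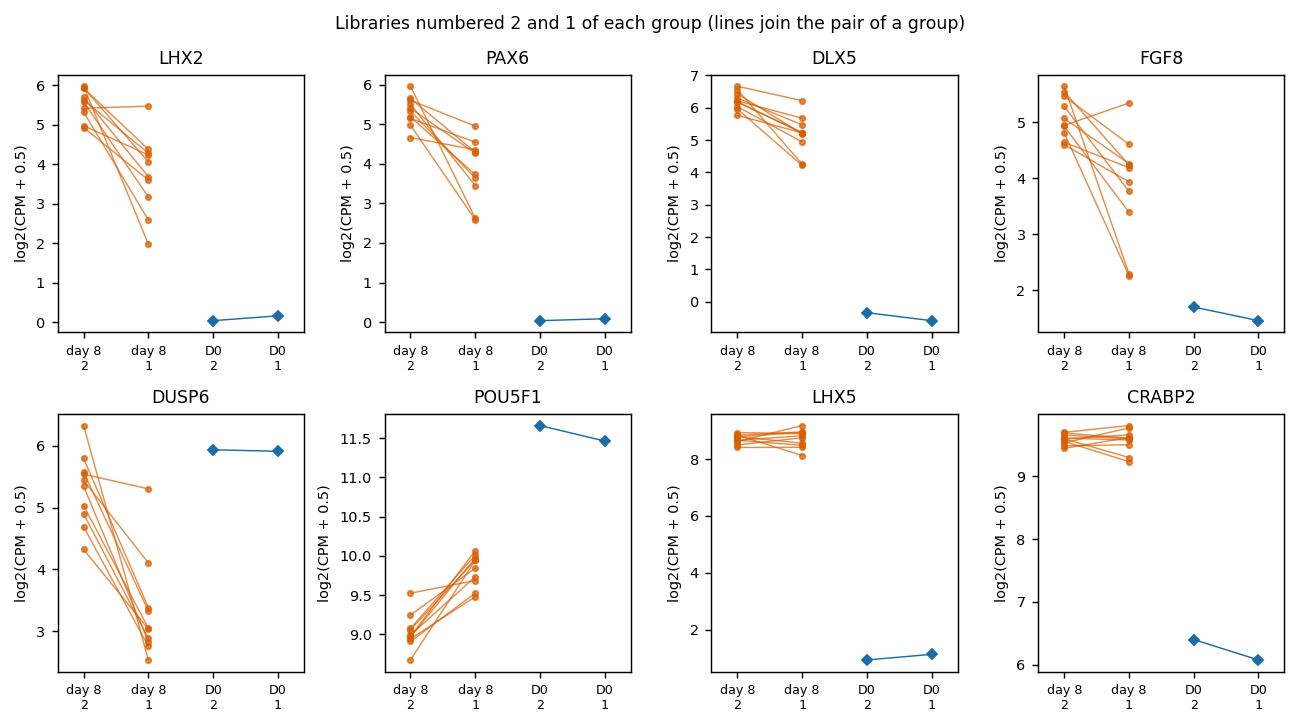
Levels as log2(CPM + 0.5) of 8 genes in the libraries numbered 2 and 1 of each day 8 group (orange, lines join the 2 libraries of a group) and of D0 (blue). LHX2, PAX6, DLX5, FGF8 and DUSP6 were mostly higher and POU5F1 lower in number 2, while for LHX5 and CRABP2 the libraries of both numbers overlapped.

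Set against D0 within each number, 10704 genes changed in libraries numbered 2 (67.2%) and 7456 in libraries numbered 1 (46.4%), each with 1 D0 library that is assumed to vary like the rest. POU5F1 fell by 2.61 on the log2 scale in number 2 and by 1.63 in number 1. For the markers this difference in differences did not pass (POU5F1 -0.98, SE 0.29, edgeR adjusted p 0.062), and over all genes 419 of 15890 passed (2.64%). DUSP6 had a log2 fold change of -0.54 in number 2 (edgeR adjusted p 0.294) and was at -2.36 in number 1 (edgeR adjusted p 0.0051), and that difference was not past the threshold (edgeR adjusted p 0.26). Directions of the 7 markers were the same in both numbers.

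The 26 other day 8 libraries of the series, of other compounds or with S9, had no part in the rule. Of the genes that separated higher, 2888 (74.9%) were also above both D0 libraries in all 26, and of those lower 3246 (82.9%) were also below. All 7 markers and 29 of the 30 genes with the widest gaps stayed on the same side of D0 there, LCP1 being the exception (0.882 to 128 CPM). The gap itself was not always wide. DACT1 reached 37.3 CPM there, against 37.7 CPM in its lower D0 library. RASGRF2 reached 27.3 CPM, against at most 4.70 CPM in the 20 libraries. LHX5 was at 94.9 to 509 CPM, CYP26A1 at 26.04 to 317 CPM and NODAL at 0.409 to 1.57 CPM. SOX2 (173 to 594 CPM), ZIC1 (0.252 to 18.9 CPM), HESX1 (7.46 to 65.1 CPM), FGF8 (1.48 to 139.5 CPM) and BAMBI (2.89 to 233 CPM) overlapped D0 in those libraries. All share the D0 libraries with the comparison above, and the difference between the 2 sets of day 8 libraries was not tested.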

How the data were processed

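RNA was sequenced in 48 libraries, 2 in each of 24 groups. The authors deposited expected counts and TPM values per gene, per the file headers. Polyadenylated RNA was used, per the labels' protocols. The genome build named is GRCh38.p13, per the submitters' processing notes. Neither aligner nor counter is given in the sources used here. Strandedness is not stated, so antisense and overlapping genes cannot be told apart. The table holds 19253 genes. Genes encoded in mitochondria were not analysed here. TPM were used only to rank abundance.

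Of the expected counts 43.4% were not whole, and all were rounded to whole numbers. The quasi-likelihood test of edgeR 4.0.16 (R 4.3.3) was fitted to the 22 libraries after filterByExpr and TMM scaling, with 1 coefficient per group, 15890 genes and 11 residual degrees of freedom. The contrast was the mean of the 10 day 8 groups minus D0. Each SE given is the absolute log2 fold change divided by the square root of the F statistic of its test. It is not a separate estimate of the spread. The common biological coefficient of variation was 0.147. Alternatives used DESeq2 1.42.0, other scalings, no filter, all 48 libraries, and each library left out. The gap is the difference of log2(CPM + 0.5) between the nearest libraries. Genes named are the 15 with the widest gap each way at a mean of at least 5 CPM, the 7 markers and the members of 28 lists. Members and lists were chosen with earlier results of these data known. Some genes of the lists are not reported here. Limits of 3 counts cover counting error only.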

Additional observations from a re-analysis of the deposited data

Results flagged for a closer look

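PDZD4, a scaffold protein gene, differed between the numbers in its difference of day 8 from D0. Day 8 minus D0 was -5.34 on the log2 scale in libraries numbered 2 and -3.99 in libraries numbered 1, a difference of -1.34 (SE 0.32, edgeR adjusted p 0.0295). It had 9.47, 12.7 and 14.1 CPM in the day 8 libraries numbered 2, 15.8, 19.8 and 30.3 CPM in those numbered 1, and 495 and 334 CPM in D0 libraries 2 and 1. The day 8 libraries of both numbers did not overlap. Each number has 1 D0 library, the fit has no terms for the groups, and the cause was not tested. Other named genes, not screened, also had unlike values by number. VRTN had -2.36 in number 2 and -1.29 in number 1, FASN -2.31 and -1.25, and ID4 4.38 and 3.56.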

How the results depend on the processing

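Changed genes numbered 9913 with DESeq2, 10092 with RLE factors, 10039 with library totals, 10196 without a filter, 10811 with all 48 libraries, 10321 with 1 coefficient per day and 9983 without the DMSO libraries, against 10077. Leaving out a library gave 8326 (D0 replicate 2) to 10228, separating genes 7804 to 8410 and genes changed in all 10 groups 4923 to 5743. With 1 D0 library left, that library is assumed to vary like the other groups. The antioxidant groups minus DMSO gave 284 genes with DESeq2, 3 without a filter, 11 with the replicate block, 701 with all 48 libraries and 0 to 3 with a library left out, against 0. Differences among the groups gave 36 with DESeq2, 1 with the replicate block, 8 with all 48 libraries and 0 to 9 with a library left out, the most without DG replicate 2. The cause of these moves was not tested. As for pairing, same-numbered libraries deviated together with r from -0.163 to 0.516 over 55 pairs of groups, with a median of 0.246. Of these pairs, 37 were over 0.1 and 3 under -0.1. Most pairs thus shared a deviation by number. The main fit has no term for the number and leaves this deviation in its spread. The replicate block gave 10616 changed and 7794 separating genes. LRP5, which did not pass (-0.04), ran from -0.35 without D0 replicate 1 to 0.33 without D0 replicate 2, and CDH3 was lower in libraries numbered 2 alone (-0.21), an alternative added after the data were seen. With 2 D0 libraries, small changes such as those of SMAD4 or MYCN rest on both. Genes under about 1 CPM rest on few counts.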
